A study of Mus musculus with 6 samples.

Results

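The 10 genes described here, Sox9, Sox2, Nfia, Nfib, Nfix, Zbtb20, Hopx, Olig2, Pax6 and Sox8, encode nuclear regulators of astrocyte fate, and they were the rows of the deposited expression table whose symbol equals one of these names, 10 of 43383 rows. RNA-seq was performed on GFP-positive astrocytes that had been sorted by flow cytometry from somatosensory cortex. The donors were Aldh1l1-eGFP mice, male and 4 weeks old, in which a transgene driven by Aldh1l1 regulatory sequences labels astrocytes with GFP. The comparison asks whether astrocytes of layers II–IV (upper-layer astrocytes, ULAs) differ from those of layers V and VI (deep-layer astrocytes, DLAs) in gene expression. There were 3 libraries of each kind, 1 ULA and 1 DLA library from each of 3 brains, and all mice carried the same transgene and received no treatment named in the labels. By the dissection, the libraries represent grey matter below layer I, without astrocytes of the pial surface, the white matter or the zone where layers IV and V meet.

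Astrocytes arise in the cortex after neurons, when radial glia switch from making neurons to making glia. Sox9 and the nuclear factor I (NFI) proteins act at this switch, Zbtb20 promotes astrocyte production, and Olig2 is best known as a regulator of the oligodendrocyte lineage that is also present in part of the astrocyte lineage. Most of these factors remain expressed in mature astrocytes.

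All 10 genes were expressed in every library, and 1 of them, Hopx, differed between the layers. Hopx mRNA was higher in DLAs by 1.61 ± 0.0362-fold (SD, n = 3 brains). Olig2 and Sox2 had higher means in DLAs but varied among the DLA libraries and did not pass. The other 7 genes, Sox9, Sox8, Nfia, Nfib, Nfix, Zbtb20 and Pax6, had 95% intervals that lay within ±0.5 on the log2 scale. In the same comparison 1.63% of all 13999 rows tested passed in either direction, 0.914% with higher values in DLAs and 0.714% with higher values in ULAs. With 10 genes, 1 call is the smallest count above 0, and nothing is read from it about the list as a whole. Because each library pools many cells, fewer cells expressing a gene and less RNA per cell cannot be told apart.

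Promoter sequences were read from RefSeq (GRCm38.p6), 250 bases before each annotated start, and 8 of the 10 genes had an entry, with 13 windows. Sox9 and Nfib had none. The windows of the 3 genes with the largest layer difference are shown, 5′ to 3′ on the strand of the gene, with capitals marking a SOX motif (ACAAAG or ACAATG on either strand). Hopx has 2 annotated starts, and no capitals appear in either window.
Hopx, chr5:77095268-77095517, minus strand: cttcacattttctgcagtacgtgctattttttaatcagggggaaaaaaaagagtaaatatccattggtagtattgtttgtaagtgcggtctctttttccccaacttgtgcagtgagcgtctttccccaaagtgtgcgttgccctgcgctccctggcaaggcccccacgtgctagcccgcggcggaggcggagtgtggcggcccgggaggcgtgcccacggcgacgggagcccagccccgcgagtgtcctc
Hopx, chr5:77115124-77115373, minus strand: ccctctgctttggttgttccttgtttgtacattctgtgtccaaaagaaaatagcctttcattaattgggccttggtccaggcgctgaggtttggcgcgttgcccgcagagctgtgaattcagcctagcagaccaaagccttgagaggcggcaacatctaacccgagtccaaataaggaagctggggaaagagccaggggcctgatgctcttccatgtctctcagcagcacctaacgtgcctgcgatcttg
Sox2, chr3:34649745-34649994, plus strand: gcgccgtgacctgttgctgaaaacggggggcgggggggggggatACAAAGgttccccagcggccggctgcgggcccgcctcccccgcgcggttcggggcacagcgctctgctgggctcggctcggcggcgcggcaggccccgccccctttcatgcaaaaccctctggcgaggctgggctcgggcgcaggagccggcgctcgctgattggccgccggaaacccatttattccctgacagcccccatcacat
Olig2, chr16:91225300-91225549, plus strand: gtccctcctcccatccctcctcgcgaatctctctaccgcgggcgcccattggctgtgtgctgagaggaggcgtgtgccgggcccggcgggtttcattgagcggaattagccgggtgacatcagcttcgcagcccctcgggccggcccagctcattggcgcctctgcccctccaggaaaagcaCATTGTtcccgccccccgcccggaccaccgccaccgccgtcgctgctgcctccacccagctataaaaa

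The window of Sox2 holds ACAAAG 206 bases before the start and that of Olig2 holds CATTGT, the reverse complement of ACAATG, 68 bases before the start. A SOX motif was present in 6 of the 13 windows, against 25.2% of 32851 mouse promoter windows of the same length. The other windows with it belonged to Nfia, Pax6 (1 of its windows) and Nfix (2 of its windows). An OLIG-type E-box (CAGATG or CAGCTG, either strand) was found in 3 windows, 1 of Nfia and 2 of Nfix, against 25.5% of all windows. An NFI motif (TTGGCA, a monomer site, either strand) was found in 1 window, that of Sox8, 70 bases before the start, against 12.3%. The Zbtb20 window held none of these letters. The Sox2 window had a GC content of 72.0% and the Olig2 window 66.8%, whereas the Hopx windows had 57.6% and 52.4% and the median of all windows was 52.4%.

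Values are RPKM, in which the reads of a row are divided by its mRNA length and by the number of mapped reads, so that levels of different genes can be set side by side. The spacing of low RPKM values placed the depth of the ULA libraries between 24.4 and 26.7 M reads and that of the DLA libraries between 19.7 and 29.6 M reads. The layers were compared by limma on log2(RPKM + 1) for rows whose mean RPKM reached 1, with terms for brain and layer, and p-values were adjusted over all rows tested by the Benjamini-Hochberg method. Log2 fold changes are upper over deep, so that negative values are higher in DLAs, and the median over all rows tested was −0.03. The sorted cells had astrocyte markers at a summed level of 10958 to 11683 RPKM in ULAs and 10010 to 10967 RPKM in DLAs. Markers of neurons (at most 7.96 RPKM in sum), microglia (14.7), endothelial cells (3.05), mural cells (21.9), oligodendrocyte precursors (3.00), meningeal fibroblasts (6.29) and ependymal or stem cells (0.95) were low beside the astrocyte markers in all libraries. The mural sum was mostly Pdgfrb (10.3 to 19.8 RPKM) and the microglial sum mostly P2ry12 (7.76 to 12.6 RPKM). These levels are in the range of the less abundant of the 10 genes. The mural marker Rgs5 passed with higher values in ULAs (2.25 against 0.90 RPKM). Oligodendrocyte markers had higher sums than these other cell types, at 87.7 to 181.3 RPKM in ULAs and 179.2 to 285.4 RPKM in DLAs. Blood genes summed to 0.81 to 1.07 RPKM in ULAs and 4.70 to 32.6 RPKM in DLAs. Among them, the rows Hbb-b1 and Hbb-b2 cover nearly the same bases and both reached 281 reads. The same reads were therefore likely summed in both rows, which would raise the DLA sum.

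**Figure D1:**
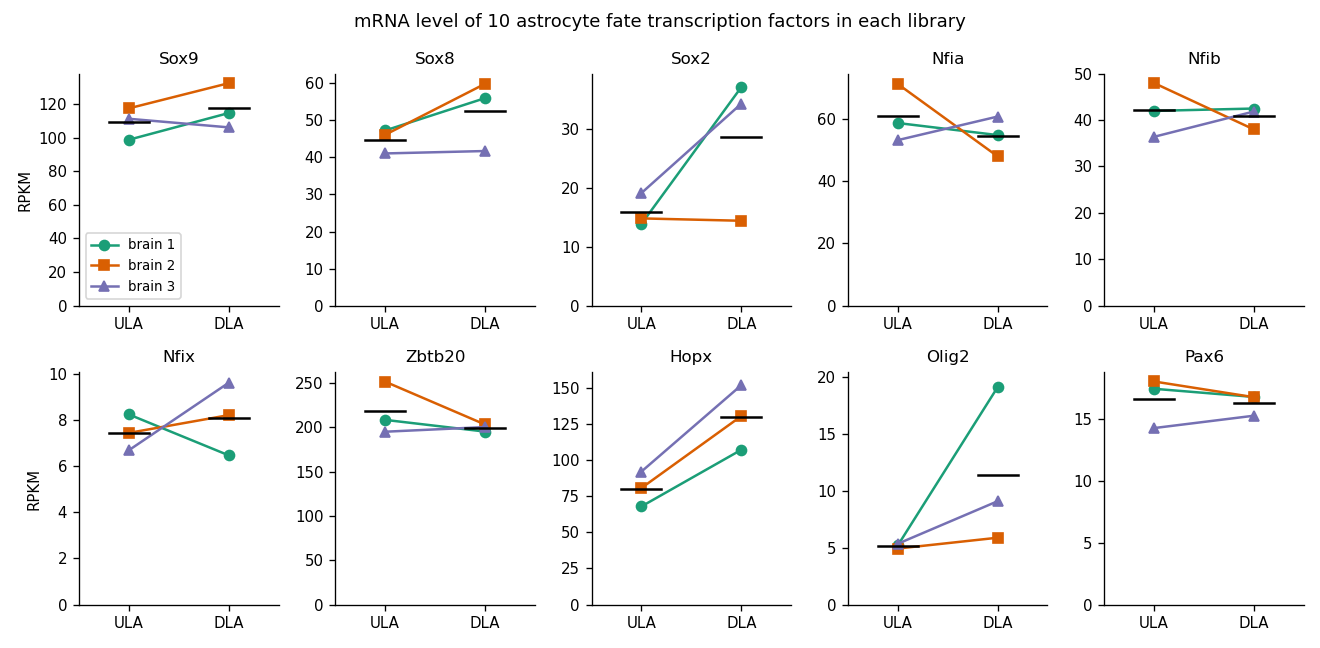
RPKM of the 10 genes in each of the 6 libraries, 1 panel per gene, with lines joining the ULA and DLA libraries of the same brain and bars for the means. Hopx rises from ULAs to DLAs in each brain by a similar factor, whereas for Sox2 and Olig2 the DLA library of brain 2 lies near the ULA values and those of brains 1 and 3 lie above them.

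Within the SOX family, Sox9 was the most abundant member. Sox9 (chr11:112643524-112649071, plus strand, 3 exons, on mm9 as are the gene positions that follow) encodes the HMG-box factor that marks astrocyte nuclei in the adult brain and acts at the onset of gliogenesis. It was measured at 98.7, 117.4 and 111.2 RPKM in ULAs and at 114.6, 132.3 and 106.1 RPKM in DLAs of brains 1, 2 and 3. The layers overlapped, and Sox9 was higher in DLAs in 2 of 3 brains. The means were 109.1 ± 9.51 and 117.7 ± 13.4 RPKM (SD, n = 3), and the log2 fold change was −0.11 (SE 0.10, 95% interval −0.33 to 0.12, adjusted p = 0.641).

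Sox8 (chr17:25702838-25707631, minus strand), a SOXE relative of Sox9, was measured at 47.3, 46.1 and 41.1 RPKM in ULAs and at 56.0, 59.8 and 41.7 RPKM in DLAs. It was higher in DLAs in each brain, but the layers overlapped because both libraries of brain 3 were low. The deep over upper ratio was 1.18, 1.30 and 1.02 in brains 1, 2 and 3, and the log2 fold change of −0.21 (SE 0.11, adjusted p = 0.360) did not pass. Sox9 exceeded Sox8 by 2.05 to 2.71-fold in RPKM in the 6 libraries. The third SOXE gene, Sox10, which belongs to the oligodendrocyte lineage, was at 0.04 to 0.68 RPKM and was not tested.

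Sox2 (chr3:34548927-34551382, plus strand, 1 exon) encodes a SOXB1 factor of neural stem cells that astrocytes retain. Its ULA values were 13.9, 14.8 and 19.1 RPKM, and its DLA values were 37.0, 14.4 and 34.2 RPKM. Brains 1 and 3 showed DLA values above all ULA values, while the DLA library of brain 2 was within the ULA range. The deep over upper ratios were 2.67, 0.973 and 1.79, and the means were 15.9 ± 2.79 RPKM in ULAs and 28.5 ± 12.3 RPKM in DLAs (SD, n = 3). The log2 fold change was −0.71 (SE 0.21, 95% interval −1.18 to −0.24), with an unadjusted p of 0.00713 and an adjusted p of 0.140 in limma. Without brain 2 the log2 fold change was −1.08 (adjusted p = 0.00528) and without brain 3 it was −0.66 (0.0143). Without brain 1 it was −0.39 (0.635), so the call rests on which brains enter. Of all rows tested, 2.09% passed without brain 2 and 7.95% without brain 3. The coefficient of variation among DLAs was 43.2%, above that of 94.0% of all rows tested.

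The noncoding row Sox2ot, which spans Sox2 on the same strand without sharing exon bases, also had its higher values in DLAs. Its values were 35.0, 36.6 and 40.7 RPKM in ULAs and 58.0, 44.6 and 63.2 RPKM in DLAs. The layers did not overlap and Sox2ot was higher in DLAs in 3 of 3 brains, with a log2 fold change of −0.54 (SE 0.11) that missed the threshold (adjusted p = 0.0513, 0.0127 to 0.403 over the alternative settings). As for Sox2, the DLA library of brain 2 was the lowest of the 3. Sox1, the other SOXB1 gene tested, was at 1.73 ± 0.255 RPKM in ULAs and 2.82 ± 0.593 RPKM in DLAs (log2 fold change −0.47, adjusted p = 0.194).

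Of the 16 other SOX genes, all in the table, 8 had a mean RPKM of at least 1. Of these, 1 passed with higher values in ULAs and 0 with higher values in DLAs, against 0.714% and 0.914% of all rows tested. Unadjusted p-values were under 0.05 for 2 of the 8, Sox7 and Sox1, against 16.4% of all rows tested, and the median log2 fold change was −0.06. The 1 that passed was Sox7, a SOXF factor known from endothelial cells, at 6.20, 7.07 and 5.29 RPKM in ULAs and 4.14, 3.65 and 2.16 RPKM in DLAs. Sox7 was higher in ULAs in all brains with no overlap (log2 fold change 0.76, SE 0.15, adjusted p = 0.0327, 0.00982 to 0.396 over the alternatives). Endothelial markers summed to 0.69 to 1.16 RPKM in ULAs and 0.35 to 3.05 RPKM in DLAs. Of the mural markers tested, Rgs5 passed in limma with higher values in ULAs (2.25 against 0.90 RPKM, adjusted p = 0.0455). Pdgfrb did not pass (adjusted p = 0.790). Which cells the Sox7 reads came from was not tested. The SOXD genes Sox5 and Sox6, which modulate other SOX factors, had close means, at 22.8 ± 2.88 against 22.6 ± 2.61 RPKM and 24.5 ± 3.26 against 23.0 ± 2.53 RPKM (log2 fold changes 0.01 and 0.08).

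The NFI genes, which encode DNA-binding proteins that bind a palindromic site as dimers and switch on astrocyte genes, had close means in both layers, and none passed. Nfia (chr4:97248634-97785567, plus strand, 12 exons) was at 58.6, 71.2 and 53.2 RPKM in ULAs and at 54.8, 48.0 and 60.7 RPKM in DLAs. Nfib (chr4:81936077-82151212, minus strand, 12 exons) was at 42.0, 48.0 and 36.4 RPKM in ULAs and at 42.5, 38.0 and 41.8 RPKM in DLAs. Nfix (chr8:87231498-87324239, minus strand, 12 exons) was lower, at 8.23, 7.43 and 6.68 RPKM in ULAs and at 6.46, 8.20 and 9.60 RPKM in DLAs. For each of these 3 genes the layers overlapped, and the sign of the difference changed from brain to brain.

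The log2 fold change was 0.16 for Nfia (SE 0.14, 95% interval −0.15 to 0.46), 0.04 for Nfib (SE 0.12, −0.23 to 0.31) and −0.09 for Nfix (SE 0.16, −0.44 to 0.25), with adjusted p-values of 0.612, 0.906 and 0.809. Nfic, the remaining NFI gene, was at 10.4 ± 0.447 RPKM in ULAs and 10.9 ± 1.60 RPKM in DLAs (log2 fold change −0.05, adjusted p = 0.880). Nfia and Nfib were highest in the ULA library of brain 2 and lowest or next to lowest in the DLA library of that brain. Their mRNAs are the longest among the 10 genes, at 9643 and 8770 bases, and the upper over deep difference rose with mRNA length over all rows tested in each brain (Spearman's rho 0.21, 0.37 and 0.10 in brains 1, 2 and 3). With the length trend removed the log2 fold change was 0.02 for Nfia and −0.10 for Nfib, so that the sign of Nfib flipped. The part of length in these values was not tested further.

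Zbtb20 (chr16:43247397-43619236, plus strand, 9 exons), a zinc finger factor with a BTB domain, was the most abundant of the 10 genes in both layers. Its values were 208.2, 251.3 and 194.9 RPKM in ULAs and 195.0, 203.0 and 200.1 RPKM in DLAs. The coefficient of variation was 2.04% among DLAs and 13.5% among ULAs, and the layers overlapped. The means were 218.1 ± 29.5 and 199.4 ± 4.06 RPKM (SD, n = 3), and the log2 fold change was 0.12 (SE 0.10, 95% interval −0.10 to 0.34, adjusted p = 0.588).

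Pax6 (chr2:105509053-105537521, plus strand, 16 exons), a paired-box and homeobox factor of radial glia that remains in astrocytes, had nearly equal means. It was at 17.5, 18.1 and 14.3 RPKM in ULAs and at 16.8, 16.8 and 15.3 RPKM in DLAs. The log2 fold change was 0.02 (SE 0.11, 95% interval −0.23 to 0.27, adjusted p = 0.950).

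Hopx (chr5:77516011-77544148, minus strand, 3 exons) encodes a small homeodomain protein that does not bind DNA itself and is known from radial glia and adult neural stem cells. It was at 67.9, 80.6 and 92.0 RPKM in ULAs and at 107.0, 130.3 and 151.7 RPKM in DLAs of brains 1, 2 and 3. Every DLA library was above every ULA library, and the brain with the highest ULA value also had the highest DLA value. The deep over upper ratios were 1.58, 1.62 and 1.65, closer to each other than the levels, which spread by 15.1% among ULAs and 17.2% among DLAs as coefficient of variation.

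The means were 80.2 ± 12.1 RPKM in ULAs and 129.7 ± 22.3 RPKM in DLAs (SD, n = 3), and the log2 fold change was −0.68 (SE 0.09, 95% interval −0.89 to −0.48, adjusted p = 0.00653 in limma). The value rests on 2506 to 6771 reads per library. Without any 1 brain the log2 fold change lay between −0.70 and −0.67 and passed each time. Without brain as a term in the fit (adjusted p = 0.197) or with no filter on low rows (0.285) it did not pass, with the same log2 fold change. Without the brain term, 41 of all 13999 rows passed in limma (0.293%), against 228 (1.63%) with it. With no filter, 0 of all 27963 rows passed in limma, and 2799 had an unadjusted p under 0.05.

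The Hopx row overlaps the row ENSMUSG00000087541 on the opposite strand, which shares 402 bases, or 26.6%, of the Hopx exons. The library kit does not mark strand, so reads in the shared bases could belong to either gene. That row was at 12.8, 14.8 and 16.6 RPKM in ULAs and at 18.1, 29.1 and 26.7 RPKM in DLAs, and its log2 fold change was −0.68 (SE 0.12), with an adjusted p of 0.0241 that ranged from 0.00139 to 0.339 over the alternatives. When every read of that row was taken out of the Hopx row, a step chosen after the data were seen, Hopx was still higher in DLAs by 1.62, 1.53 and 1.66-fold in brains 1, 2 and 3. The log2 fold change was then −0.67 (adjusted p = 0.00789).

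Over the 6 libraries, the 5 genes whose RPKM followed Hopx most closely among 7914 rows were Swi5 (Pearson's r = 0.995), Psmg2 (0.994), Dnttip1 (0.989), Ddx1 (0.989) and Tmem143 (0.988). Swi5 acts in homologous recombination and Psmg2 in proteasome assembly. The 6 points share 3 brains and 2 layers, and none of the 5 genes passed the layer comparison, with log2 fold changes of −0.29 to −0.26. For Zbtb20 the 5 closest were Cecr2 (0.994), Cpeb4 (0.987), Rpl37 (0.985), 4930480K15Rik (0.980) and Hdac8 (0.979). Each of these was highest in the ULA library of brain 2, as was Zbtb20.

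Olig2 (chr16:91225795-91228922, plus strand, 2 exons) encodes a basic helix-loop-helix factor. Its ULA values were close together, at 5.18, 4.91 and 5.33 RPKM, while its DLA values were 19.1, 5.86 and 9.06 RPKM. All DLA values were above all ULA values, and the deep over upper ratios were 3.68, 1.19 and 1.70. The coefficient of variation was 4.14% among ULAs and 60.8% among DLAs, the latter above that of 97.9% of all rows tested. The log2 fold change was −0.86 (SE 0.23, 95% interval −1.38 to −0.34), with an unadjusted p of 0.00401 and an adjusted p of 0.106. It was −1.18 without brain 2 (adjusted p = 0.0234), −0.96 without brain 3 (0.00123) and −0.44 without brain 1 (0.617). In these fits 2.09%, 7.95% and 1.64% of all rows tested passed.

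Olig1, the neighbour and relative of Olig2, was more abundant, at 83.0, 80.0 and 90.8 RPKM in ULAs and at 114.1, 125.5 and 87.2 RPKM in DLAs. The layers overlapped through brain 3, and the log2 fold change was −0.35 (SE 0.13, adjusted p = 0.235). Olig1 exceeded Olig2 by 16.0, 16.3 and 17.0-fold in the ULA libraries and by 5.99, 21.4 and 9.62-fold in the DLA libraries. The order of the DLA libraries thus differed, with Olig2 highest in brain 1 and Olig1 highest in brain 2.

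Oligodendrocyte markers were summed beside these values because Olig2 is also expressed in that lineage. The sums were 90.2, 87.7 and 181.3 RPKM in ULAs and 179.2, 205.6 and 285.4 RPKM in DLAs of brains 1, 2 and 3. Of the 9 markers tested, 7 passed with higher values in DLAs, against 0.914% of all rows tested. Among DLAs the sum was highest in brain 3 and lowest in brain 1, whereas Olig2 was highest in brain 1. Their part in the Olig2 values was not tested. Among the 5 genes listed for oligodendrocyte precursors, 2 were near 0, with Pdgfra at 0.07 RPKM or less and Gpr17 at 0.03 RPKM or less, while Cspg4 reached 0.92 RPKM, Vcan 0.58 RPKM and Tnr 1.54 to 1.98 RPKM.

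Of the 8 other regulators of oligodendrocyte fate, 7 were in the table, 2 were tested and 1 passed with higher values in DLAs. The share of all rows tested that did so was 0.914%. Nkx2-2, a homeodomain factor of oligodendrocyte differentiation, was at 2.40, 2.19 and 2.40 RPKM in ULAs and at 4.85, 6.04 and 4.70 RPKM in DLAs. It was higher in DLAs in every brain with no overlap (log2 fold change −0.89, SE 0.15, adjusted p = 0.0153, 0.000612 to 0.339 over the alternatives). The Nkx2-2 values were close together among DLAs, unlike those of Olig2.

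**Figure D2:**
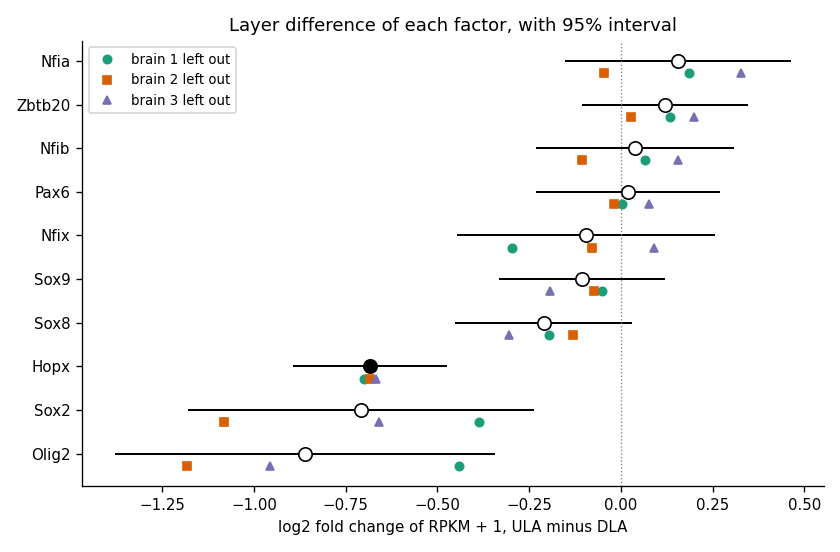
Log2 fold change of each of the 10 genes, upper over deep on the log2(RPKM + 1) scale, with bars for the 95% interval of the limma fit, a filled point for the gene that passed, and coloured points for the values with each brain left out. Hopx lies at −0.68 with values that barely move when a brain is left out, while Olig2 and Sox2 move between −1.18 and −0.44 and between −1.08 and −0.39.

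Counted over all 10 genes, 2 had every DLA value above every ULA value, Hopx and Olig2, against 9.27% of all rows tested. In 3 of 3 brains, 3 genes were higher in DLAs (Hopx, Olig2 and Sox8), against 23.2% of all rows, and 0 were higher in ULAs, against 15.2%. In limma, 3 genes had an unadjusted p under 0.05, all with higher values in DLAs, and 0 with higher values in ULAs, against 16.4% of all rows in either direction. The median log2 fold change of the 10 genes was −0.10, with 4 positive and 6 negative values.

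The order of the levels was almost the same in both layers. In ULAs it ran from Zbtb20 (218.1 RPKM) through Sox9 (109.1), Hopx (80.2), Nfia (61.0), Sox8 (44.8), Nfib (42.1), Pax6 (16.6), Sox2 (15.9) and Nfix (7.45) to Olig2 (5.14). The libraries of neighbours overlapped for Hopx and Nfia, Sox8 and Nfib, and Pax6 and Sox2, and the other neighbours were apart. In DLAs Hopx (129.7 RPKM) stood above Sox9 (117.7), Sox2 (28.5) above Pax6 (16.3), and Olig2 (11.3) above Nfix (8.09). The libraries overlapped for each of these pairs, and also for Nfia and Sox8, Sox8 and Nfib, and Pax6 and Olig2.

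**Figure D3:**
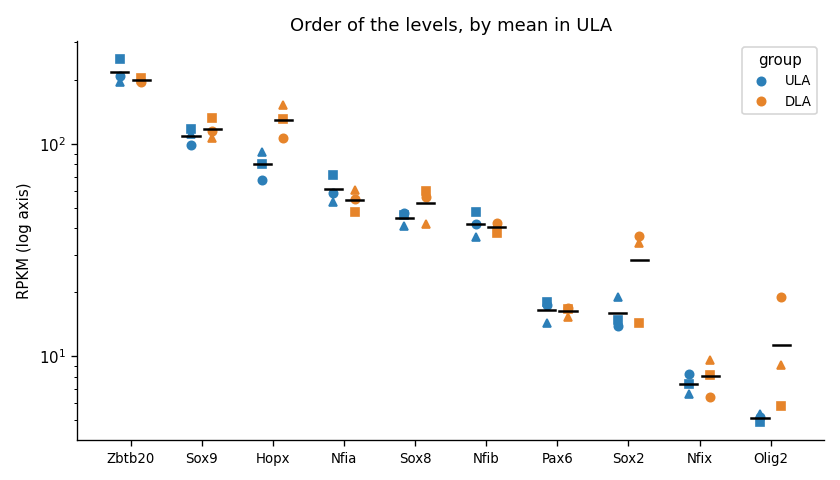
RPKM on a log axis of the 10 genes in ULAs and DLAs, ordered by the ULA mean, with short bars for the means and circles, squares and triangles for brains 1, 2 and 3. Zbtb20 is the highest in both layers, and the levels span from 251.3 RPKM for Zbtb20 to 4.91 RPKM for Olig2.

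Of the 28 tested among 31 other regulators of radial glia and gliogenesis, 1 passed with higher values in ULAs and 0 with higher values in DLAs, and 10 had an unadjusted p under 0.05. Of all rows tested, 0.714% passed with higher values in ULAs, 0.914% with higher values in DLAs and 16.4% had an unadjusted p under 0.05. Their median log2 fold change was 0.12. Stat3, which carries cytokine signals that turn on astrocyte genes, was at 22.0, 20.9 and 20.8 RPKM in ULAs and at 15.6, 15.0 and 12.6 RPKM in DLAs. Every ULA value exceeded every DLA value (log2 fold change 0.53, SE 0.11, adjusted p = 0.0492), a call that lies at the threshold and passed in 3 of 11 alternatives (0.0273 to 0.339). Jak1, the kinase upstream of Stat3, was at 27.2 ± 1.06 RPKM in ULAs and 22.6 ± 0.696 RPKM in DLAs and did not pass (log2 fold change 0.26, adjusted p = 0.262).

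The most abundant genes of this list were Hmgn3, a nucleosome-binding protein, at 625.6 against 697.8 RPKM, and the homeobox gene Dbx2, at 180.0 against 223.1 RPKM in ULAs and DLAs. The Notch target Hes5 was at 167.0 against 204.6 RPKM. None of these passed, with log2 fold changes of −0.13, −0.31 and −0.28 and adjusted p-values of 0.573, 0.162 and 0.203. Lhx2, a LIM homeobox factor of the cortex, was at 36.1, 15.4 and 39.7 RPKM in ULAs and at 49.6, 20.5 and 51.3 RPKM in DLAs. It was low in both libraries of brain 2 and higher in DLAs within each brain, but it did not pass (log2 fold change −0.40, SE 0.10, adjusted p = 0.0932).

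Of 15 genes listed as astrocyte genes, all tested, 0 passed with higher values in ULAs and 1 with higher values in DLAs. The shares of all rows tested were 0.714% and 0.914%. An unadjusted p under 0.05 was found for 5 of the 15 (16.4% of all rows), and the median log2 fold change was 0.12. The 1 that passed was Gfap, the intermediate filament of astrocytes, at 12.2, 12.5 and 10.4 RPKM in ULAs and at 23.8, 28.8 and 17.8 RPKM in DLAs, for which limma gave a log2 fold change of −0.93 (SE 0.12) and an adjusted p of 0.00556. It passed in 9 of 11 alternatives, not without brain as a term or with no filter, and its adjusted p reached 0.301 in limma. Mmd2, known as a target of Sox9 and Nfia, had close means of 765.5 ± 42.8 and 790.0 ± 50.1 RPKM (log2 fold change −0.04, adjusted p = 0.857). Apcdd1 and Zcchc24, also placed downstream of these factors, were at 5.05 against 4.84 RPKM and at 12.7 against 14.0 RPKM, with adjusted p-values of 0.768 and 0.803.

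**Figure D4:**
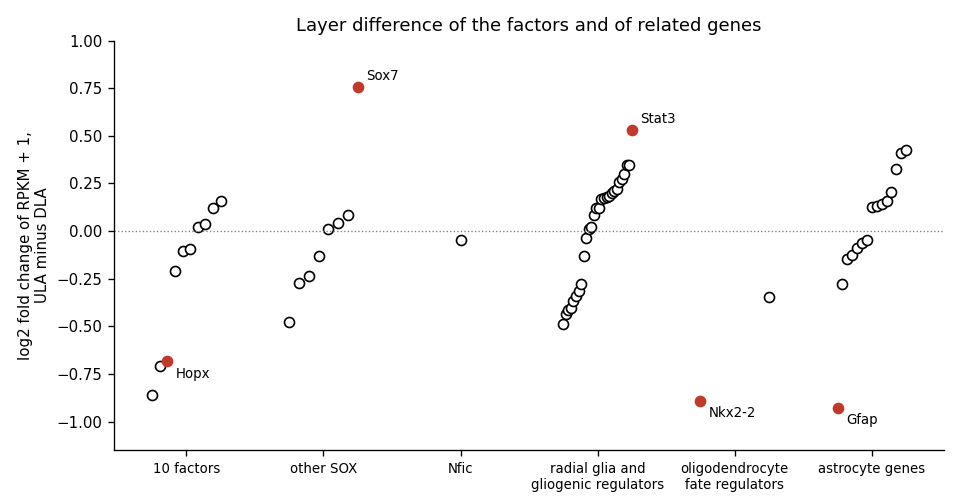
Log2 fold change, upper over deep, of the 54 tested genes of the related lists and of the 10 genes described here, 1 column of points per list, with filled points for genes past the adjusted p threshold. Most points lie near 0, and the marked genes are Hopx, Gfap and Nkx2-2 on the DLA side and Sox7 and Stat3 on the ULA side.

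Because the reads have 36 bases and carry no strand, the other rows that overlap these genes bear on their values. In all, 19 rows overlap 7 of the 10 genes, and Sox9, Olig2 and Sox8 have none. Of these rows 14 had a mean RPKM of at least 1, and 3 share exon bases with the gene. Beside the Hopx row, these were ENSMUSG00000074203, which shares 137 bases (3.51%) with Nfix, and ENSMUSG00000048747, which shares 4 bases with Nfia. The first was at 4.78 RPKM in ULAs and 5.99 RPKM in DLAs, near the Nfix level (log2 fold change −0.27, adjusted p = 0.322), and the second was at 59.8 and 60.1 RPKM, near the Nfia level. The row E130114P18Rik, opposite to Nfia with no shared exon bases, was at 59.9 and 61.7 RPKM (log2 fold change −0.04, adjusted p = 0.866).

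Sequence shared with other genes was counted as the percentage of 36-base stretches of each gene's transcripts that also occur in transcripts of another gene in GENCODE M21. It was 25.8% for Hopx, of which 377 of 389 stretches lie in Hopxos, and 9.44% for Sox8, all in 2810468N07Rik. Nfix had 1.68%, and Sox9 0.537%, with 15 of 22 stretches shared with Sox10. The other 6 genes had at most 0.403%, and Nfib and Olig2 had 0 shared stretches. How reads with more than 1 match were counted is not given in the sources used here.

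**Figure D5:**
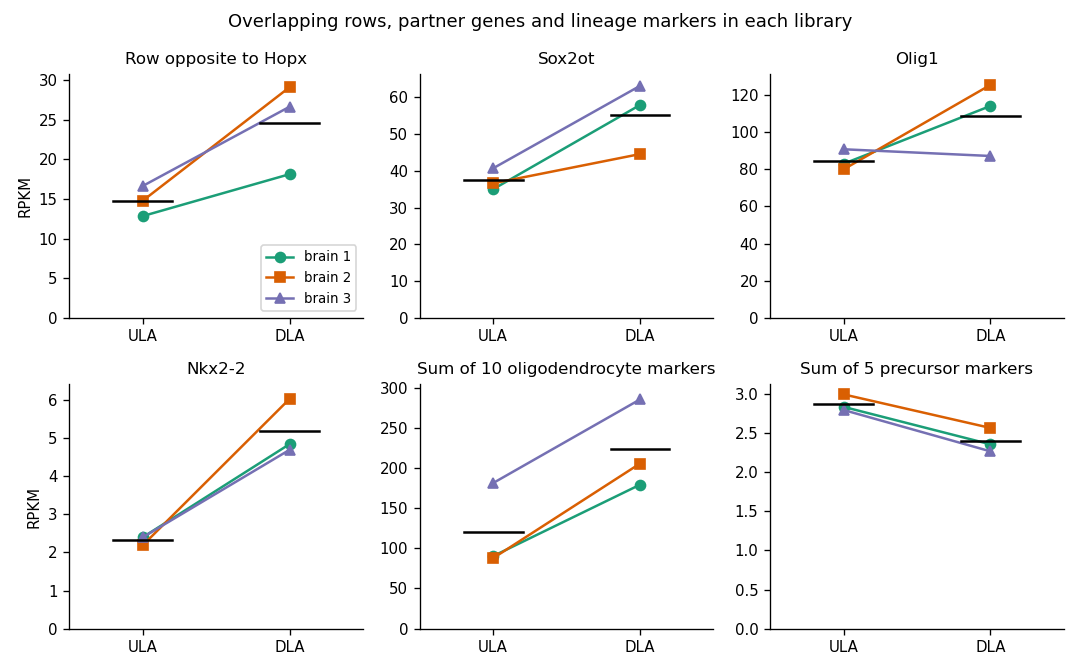
RPKM by library of the row opposite to Hopx, Sox2ot, Olig1 and Nkx2-2, and summed RPKM of 10 oligodendrocyte and 5 precursor markers, with lines joining the libraries of a brain and bars for the means. Sox2ot and Nkx2-2 are higher in DLAs in every brain, Olig1 is not in brain 3, and among DLAs the summed oligodendrocyte markers are highest in brain 3, whereas Olig2 is highest in brain 1.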

How the data were processed

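RNA of GFP-positive cells from 3 brains was reverse transcribed and amplified (SMART-Seq v4), and Nextera XT libraries were sequenced as single reads of 36 bases. The deposited values are RPKM per row, truncated to 2 decimals, made by the authors. The submitters' processing notes name bcl2fastq 1.8.4, CASAVA 1.8.2 and the mm9 build. The aligner and counting program are not given in the sources used here. RNA was isolated with TRIzol or RNAiso Plus, and which library had which is not given.

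Depth was read from the RPKM steps, using rows no longer than 500 bases. Of these values 100% were whole multiples of 1 read, against 67.2% to 80.5% at the next-best depth. The test ran on RPKM and not on these reads, which give precision only.

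The 13999 rows whose mean RPKM reached 1 were compared on log2(RPKM + 1) by limma 3.58.1 under R 4.3.3, using lmFit and then eBayes with trend. The model had terms for brain and layer, a 2-sided p-value and a threshold of an adjusted p under 0.05. An exact permutation test cannot go below 0.1 here, or below 0.25 with the pairs kept. The series text gives 3 brains, and the deviations of same-numbered libraries around the mean of their layer were correlated (r across rows 0.42, 0.33 and 0.34, against −0.20 to −0.16 for different numbers), so the number was taken as the brain.

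In a test on simulated data over 13999 rows of this comparison, with 200 rows changed, 0%, 45.5% and 88% were recovered at log2 changes of 0.5, 1 and 2, with 0, 3 and 6 false calls. Alternatives were no brain term, no filter, a filter at a mean RPKM of 5, a pseudocount of 0.1, quantile normalization, median centring, no variance trend, a length trend (loess span 0.5) removed, each brain left out, and, chosen after the data were seen, reads of the overlapping row taken out of Hopx.

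The 10 genes are named in full. Of the related lists (other NFI, other SOX, radial glia and gliogenic regulators, oligodendrocyte fate regulators, astrocyte genes) each gene that passed is named, as are the 5 rows most like Hopx and like Zbtb20. Other genes and overlapping rows were named after their values were seen. The genes and lists were chosen with earlier results of these data known, and no list was tested as a set. A further list, of regulators of neuron production, is not reported here. Promoters came from RefSeq (GRCm38.p6) and transcripts from GENCODE M21, and no coordinates were carried between builds. Python 3.11.15, pandas 2.3.3, numpy 2.4.6 and matplotlib 3.10.9 were used.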

Additional observations from a re-analysis of the deposited data

How the results depend on the processing

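Of the 111 values for single genes under alternative settings, 99 kept their direction and their side of the threshold. The count of the 10 genes that passed was 1 in the fit with brain as a replicate block. It was 0 without the replicate block, with 3 at an unadjusted p under 0.05 in limma. In that fit 41 of all 13999 rows passed (0.293%), against 228 (1.63%) with the block. With no filter the count was 0 as well, with 2 at an unadjusted p under 0.05. There 0 of all 27963 rows passed (2799 at an unadjusted p under 0.05). The other related genes that passed numbered 4 of 54, against 1.63% of all rows tested. They numbered 1 without the replicate block (0.293% of all rows) and 0 with no filter (19 at an unadjusted p under 0.05). With quantile normalization they numbered 7 (1.72% of all rows), and with the length trend removed 2 (1.13%). With each brain left out, the counts ranged from 1 to 3 for the 10 genes and from 3 to 13 for the related genes. Without brain 2 or without brain 3 the 3 genes were Hopx, Olig2 and Sox2. The 13 related genes were reached without brain 3, where calls over all rows tested rose as well, from 228 to 1113 (7.95%), and were 293 (2.09%) without brain 2.

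The sign turned for genes whose values lay near 0. With the length trend removed the log2 fold change was −0.0975 for Nfib and −0.0356 for Pax6. With each brain left out it ranged from −0.0459 to 0.33 for Nfia, from −0.11 to 0.16 for Nfib, from −0.30 to 0.0905 for Nfix and from −0.0195 to 0.0760 for Pax6. On simulated data none of the 200 rows changed by 0.5 on the log2 scale were recovered, so the power for changes of that size was low.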
